A study of Mus musculus with 12 samples.

Results

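Signaling through the receptors for leukemia inhibitory factor (LIF) and ciliary neurotrophic factor (CNTF) was followed here by 9 of the 770 genes of a cancer pathway panel. The members were picked by symbol: the ligands *Lif* and *Clcf1*, the receptors *Lifr* and *Cntfr*, the kinases *Jak1* and *Jak2*, the transcription factor *Stat3* and the inhibitors *Socs2* and *Socs3*. All 9 were measured in all 12 mouse samples. The samples were 5 *RBS* lesions, 4 control eyes and 3 Shh-MBs, and each was frozen tissue of a single lesion, eye or tumor from an individual animal. *RBS* lesions came from the eyes of Rax-creERT2::Ctnnb1(ex3)Fl/+SmoM2Fl/+ embryos, taken at E18.5 after tamoxifen at E8.5. The *Rax* promoter drives the inducible Cre in retinal precursors, where it activates Wnt signaling through *Ctnnb1* and Shh signaling through *SmoM2*, and the lesions replace most of the regular eye. Control eyes were taken at E18.5 from Ctnnb1(ex3)Fl/+SmoM2Fl/+ embryos, which carry both floxed alleles without Cre. The labels do not give whether their mothers received tamoxifen. Shh-MBs, a model of Shh medulloblastoma, were hindbrain tumors of 14 day old hGFAP-cre::SmoM2Fl/+ mice. The floxed *SmoM2* allele was therefore shared by all 3 groups. Tissue, age, Cre driver and genotype differed together between Shh-MBs and eyes and cannot be told apart, and the sex of the animals is not in the labels.

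LIF and CNTF belong to the interleukin-6 family of cytokines, whose receptors share the signal-transducing chain gp130. LIF binds the LIF receptor with gp130, whereas CNTF and the cardiotrophin-like factor encoded by *Clcf1* also need the CNTF receptor alpha chain. The receptor-bound Janus kinases then phosphorylate STAT3, which enters the nucleus and switches on genes that include *Socs3*, whose product binds gp130 and the kinases and shuts the signal down. In the retina this route is known for its role in glial differentiation and in the protection of injured photoreceptors. The values are RNA levels, and phosphorylated STAT3 was not analysed here. The genes *Il6st* (gp130), *Osmr*, *Cntf* and *Tyk2* were not analysed here.

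The values are a normalized signal, the molecules counted per gene above a background level after 1 scaling factor per sample. The median step between neighbouring low values was taken as an estimate of 1 count. The total divided by it was 335392 to 716684 estimated counts over the 12 samples, so a signal of a few units rests on a few counts. A gene without signal above background sits at the lowest value of its sample. Differences are given on the scale of log2(signal + 1), which understates the change of low genes, with the standard error (SE). Tests were made with limma, adjusted over all 770 genes by the Benjamini-Hochberg procedure, with 0.05 as the threshold, and folds were taken back from the log2 differences. The samples were bulk tissue, in which fewer cells of a type and less RNA per cell cannot be told apart.

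Against control eyes, *RBS* lesions held more *Stat3*, *Jak2* and *Jak1* and less *Socs3*, while the ligands, both receptors and *Socs2* did not pass the test. *Stat3* was 2.44-fold and *Jak2* 1.91-fold higher in the lesions. Thus 3 of 9 members passed the test upward, where 33.0% of all genes did, and 1 of 9 passed downward, where 18.2% did. The groups did not overlap for 4 of 9 members and for 43.4% of all genes. The median log2 difference was 0.13 over the members and 0.17 over all genes.

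Against Shh-MBs, 6 of 9 members were higher and 2 were lower in *RBS* lesions. Under the deposited scaling *Lifr* was 3.96-fold and *Cntfr* 3.89-fold higher, and *Socs3* was 3.52-fold lower. Of all genes, 48.1% passed upward and 12.7% downward. The groups did not overlap for 7 members and for 59.9% of all genes, and the median log2 difference was 0.99 over the members and 0.53 over all genes.

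Shh-MBs differed from control eyes by lower receptors and kinases and by higher *Socs2* and *Socs3*. Here 2 of 9 members passed upward, as 9.61% of all genes did, and 4 of 9 downward, as 31.4% did. The groups did not overlap for 6 members and for 48.2% of all genes, and the medians were -0.69 over the members and -0.22 over all genes. The 3 comparisons share their samples pairwise and are given side by side.

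The scaling of the samples bears on these differences. Centring each sample on its median over all genes moved the median difference of all genes by -0.18 for *RBS* lesions against control eyes, by -0.85 against Shh-MBs and by 0.67 for Shh-MBs against control eyes. Of the genes that passed, the share that was higher was 64.5% for *RBS* lesions against control eyes, and 50% with median centring and 50.8% with quantile normalization. Against Shh-MBs this share was 79.1%, and it was 36.2% with median centring, 46.2% with quantile normalization, 62.3% with scaling to the total without the 3 highest genes and 67.9% with centring on reference genes. For Shh-MBs against control eyes it was 23.4%, and 69.1%, 59.9%, 47.5% and 34.2% in the same order. Members that passed under the deposited scaling and all 4 others were *Jak2*, *Stat3* and *Socs3* for *RBS* lesions against control eyes. They were *Lifr*, *Cntfr*, *Jak2*, *Socs2* and *Socs3* for *RBS* lesions against Shh-MBs, and *Lifr*, *Cntfr*, *Socs2* and *Socs3* for Shh-MBs against control eyes. Their sizes moved all the same. Over all alternatives the log2 difference of *RBS* lesions from Shh-MBs ran from 1.14 to 2.13 for *Lifr*, 1.07 to 2.24 for *Cntfr*, 0.86 to 1.77 for *Jak2*, -1.44 to -0.56 for *Socs2* and -2.84 to -1.66 for *Socs3*. For Shh-MBs against control eyes it ran from -1.96 to -1.15 for *Lifr*, -2.24 to -1.26 for *Cntfr*, 0.68 to 1.39 for *Socs2* and 1.23 to 2.28 for *Socs3*.

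**Figure D1:**
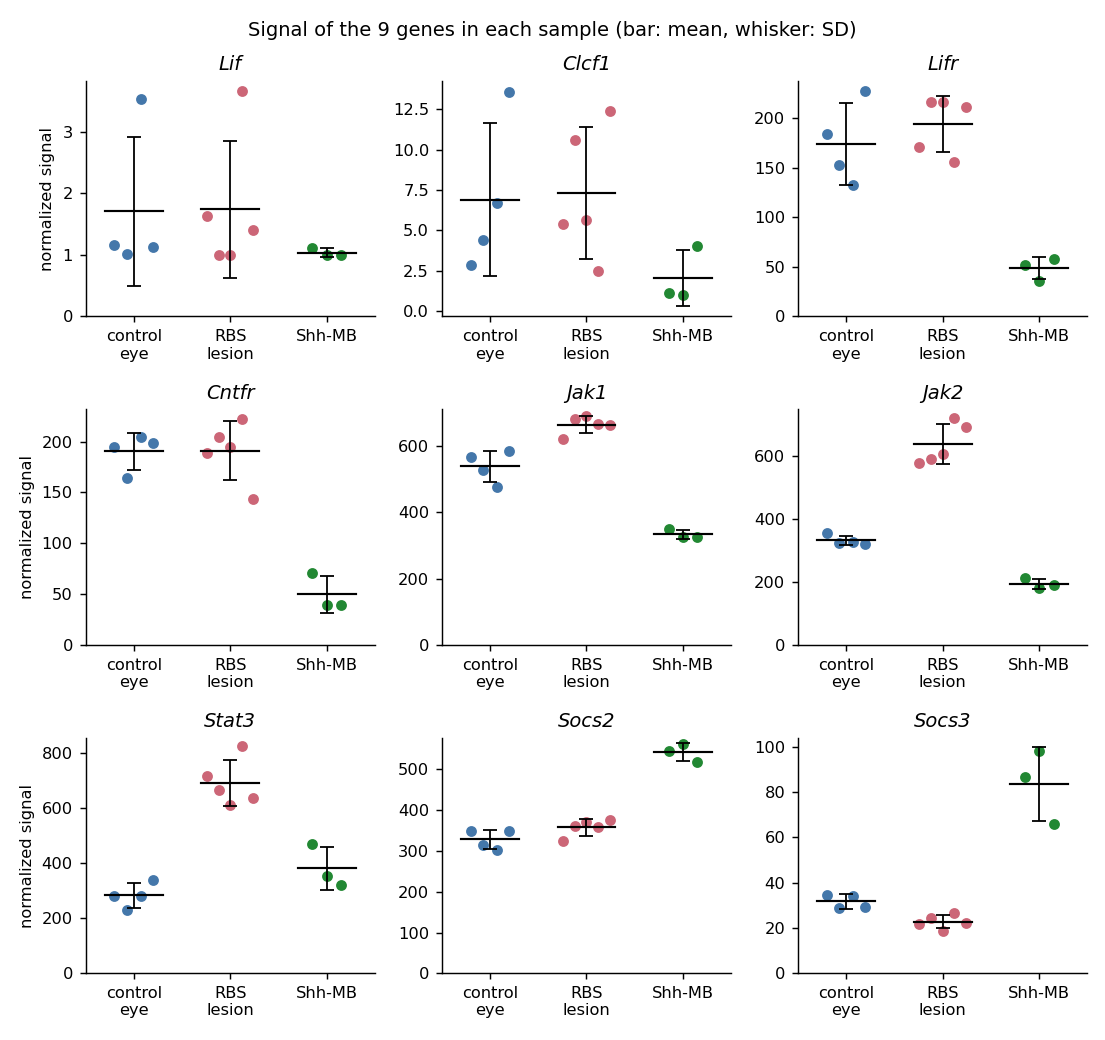
Normalized signal of each of the 9 genes on a linear axis in control eyes (n = 4), *RBS* lesions (n = 5) and Shh-MBs (n = 3), 1 point per sample, with the mean as a bar and the SD as a whisker. *Stat3* and *Jak2* lie higher in all *RBS* lesions than in any other sample, *Socs3* lies lowest in *RBS* lesions and highest in Shh-MBs, and *Lif* is near its lowest value throughout.

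The ligand genes were close to the limit of detection. *Lif*, the founding ligand of this receptor, had signals of 1.17, 1.01, 3.53 and 1.13 in the control eyes, 1.64, 1.0, 1.0, 3.67 and 1.4 in the *RBS* lesions and 1.12, 1.0 and 1.0 in the Shh-MBs. It sat at the lowest value of the sample in 2 of 4 control eyes, 3 of 5 *RBS* lesions and 3 of 3 Shh-MBs. No order of the groups can be read from values at this limit. *Clcf1*, a ligand of the CNTF receptor, had signals of 2.88, 4.42, 6.72 and 13.6 in the control eyes, 5.39, 10.6, 5.66, 2.46 and 12.4 in the *RBS* lesions and 1.12, 1.0 and 4.03 in the Shh-MBs. Both eye groups covered a similar range, and 2 of 3 Shh-MBs were at the lowest value.

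The log2 difference of *Clcf1* between *RBS* lesions and Shh-MBs was 1.43 (SE 0.496), which passed the test (limma, adjusted *p* = 0.0362) although the groups overlapped (exact permutation *p* = 0.0714). This call was lost with 13 of 18 alternatives. Leaving out any 1 of *RBS* lesions 1, 2, 3 and 5 or of Shh-MBs 1 and 2 ended it, with adjusted *p* between 0.0554 and 0.122. Neither ligand differed between *RBS* lesions and control eyes by more than the spread between samples. The 95% interval of the log2 difference was -0.7 to 0.75 for *Lif* and -0.99 to 1.18 for *Clcf1*, so differences within these intervals were not excluded.

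The receptor genes separated the eye samples from the Shh-MBs. *Lifr*, the signaling chain that LIF binds, had signals of 184, 153, 133 and 228 in the control eyes and 171, 216, 216, 156 and 211 in the *RBS* lesions. In the Shh-MBs it was 51.8, 36.1 and 58.3, below every eye sample. Its mean was 175 ± 41.3 (SD, *n* = 4) in control eyes, 194 ± 28.6 (*n* = 5) in *RBS* lesions and 48.7 ± 11.4 (*n* = 3) in Shh-MBs. The neighbouring levels of control eyes and *RBS* lesions overlapped, with a log2 difference of 0.17 (95% interval -0.23 to 0.57) that did not pass the test (limma, adjusted *p* = 0.469). Against Shh-MBs, *Lifr* was higher by 1.99 (SE 0.19) on the log2 scale in *RBS* lesions (limma, adjusted *p* = 5.04e-05). It was 3.53-fold lower in Shh-MBs than in control eyes (limma, adjusted *p* = 0.00102).

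*Cntfr* encodes the alpha chain that gives CNTF its specificity. Its signal was 195, 164, 204 and 199 in the control eyes, 189, 204, 195, 222 and 144 in the *RBS* lesions and 70.8, 38.9 and 39.7 in the Shh-MBs. Both eye groups had the same mean, 191 ± 18.4 (SD, *n* = 4) and 191 ± 28.9 (*n* = 5), and the Shh-MBs lay below all eyes at 49.8 ± 18.2 (*n* = 3). The log2 difference of *RBS* lesions from control eyes was -0.01, with a 95% interval of -0.31 to 0.3 and an adjusted *p* of 0.969 (limma). *Cntfr* was higher in *RBS* lesions than in Shh-MBs by 1.96 (SE 0.229, limma, adjusted *p* = 0.00015), and 3.91-fold lower in Shh-MBs than in control eyes (limma, adjusted *p* = 0.000564).

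Markers of mesenchyme, endothelium and surface epithelium were, like the receptors, lowest in Shh-MBs. The summed signal of all 10 mesenchyme markers was 26500 to 59500 in control eyes, 21300 to 38500 in the *RBS* lesions and 1750 to 2410 in Shh-MBs. Of these, 9 of 10 were higher in *RBS* lesions than in Shh-MBs, beside 48.1% of all genes. *Pdgfra* was lower, beside 12.7% of all genes. Between the eye groups, where the receptors did not pass, *Tnc* was higher and *Col1a1*, *Col1a2* and *Thbs1* were lower in *RBS* lesions. The 3 endothelial markers measured of 8 summed to 1790 to 2260, 695 to 988 and 129 to 235 in the same order. *Kdr* made up most of these sums, with means of 1860, 664 and 110. Between the eye groups *Kdr* alone passed, lower in *RBS* lesions. *Flt1* (means 53.3 in control eyes and 58.5 in *RBS* lesions) and *Angpt2* (112 and 136) did not pass. The 9 surface epithelium markers measured of 13 summed to 875 to 1380, 1610 to 2310 and 189 to 264, and *Itga2* and *Calml3* sat at their sample's lowest value in every Shh-MB. Their part in the receptor levels was not tested.

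The kinases *Jak1* and *Jak2*, which phosphorylate the receptor and STAT3, were highest in *RBS* lesions and lowest in Shh-MBs. *Jak2* had signals of 355, 325, 326 and 322 in the control eyes and 578, 591, 607, 721 and 692 in the *RBS* lesions. The Shh-MBs had 212, 180 and 190, so that no 2 groups overlapped. Its mean was 332 ± 15.4 (SD, *n* = 4) in control eyes, 638 ± 64.3 (*n* = 5) in *RBS* lesions and 194 ± 16.2 (*n* = 3) in Shh-MBs. *Jak2* was higher in *RBS* lesions than control eyes by 0.94 (SE 0.0948) on the log2 scale (limma, adjusted *p* = 6.63e-05). The exact permutation test gave *p* = 0.00794, the smallest value that 5 against 4 samples allow. *Jak2* was 3.27-fold higher in *RBS* lesions than in Shh-MBs (limma, adjusted *p* = 1.01e-05) and 1.71-fold lower in Shh-MBs than in control eyes (limma, adjusted *p* = 0.000862). Both differences of *RBS* lesions passed in all alternatives run, while that of Shh-MBs from control eyes was -0.11 with median centring (adjusted *p* = 0.454).

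*Jak1* differed by less. It had signals of 567, 528, 476 and 584 in the control eyes, 622, 682, 692, 667 and 663 in the *RBS* lesions and 350, 327 and 325 in the Shh-MBs. The groups did not overlap, with means of 539 ± 48.0 (SD, *n* = 4), 665 ± 26.7 (*n* = 5) and 334 ± 13.7 (*n* = 3). The log2 difference of *RBS* lesions from control eyes was 0.31 (SE 0.0867, limma, adjusted *p* = 0.016). It no longer passed with median centring (0.13, adjusted *p* = 0.266), centring on reference genes (0.2, adjusted *p* = 0.116) or quantile normalization (0.08, adjusted *p* = 0.376). Against Shh-MBs *Jak1* was 1.99-fold higher in *RBS* lesions (limma, adjusted *p* = 3.42e-05), and it was 1.61-fold lower in Shh-MBs than in control eyes (limma, adjusted *p* = 0.00223). Both were lost with median centring alone among the scalings, at 0.15 (adjusted *p* = 0.308) and -0.02 (adjusted *p* = 0.906).

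The ratio of the kinases within a sample hardly depends on a scaling factor for that sample. Since probes differ in efficiency, only its difference between groups is read. The log2 ratio of *Jak2* to *Jak1* was -0.11, -0.21, -0.19, 0.11 and 0.06 in the *RBS* lesions, -0.68, -0.7, -0.54 and -0.86 in the control eyes and -0.72, -0.86 and -0.77 in the Shh-MBs. All *RBS* lesions lay above all other samples, by 1.55-fold against control eyes and 1.64-fold against Shh-MBs, whereas control eyes and Shh-MBs overlapped. *Jak2* thus exceeded control eyes by more than *Jak1* did in the same lesions.

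*Stat3*, the transcription factor of the route, had the largest rise of the members in *RBS* lesions over control eyes. Its signal was 282, 229, 280 and 339 in the control eyes and 714, 664, 609, 823 and 635 in the *RBS* lesions. The Shh-MBs had 468, 353 and 320, of which the lowest was within the range of the control eyes. The means were 282 ± 44.6 (SD, *n* = 4), 689 ± 84.5 (*n* = 5) and 380 ± 77.8 (*n* = 3). *Stat3* was higher in *RBS* lesions than control eyes by 1.29 (SE 0.134) on the log2 scale (limma, adjusted *p* = 7.39e-05), with an exact permutation *p* of 0.00794. Across the 4 other scalings and the samples left out in turn, this difference kept its call, and over all alternatives it was between 1.09 and 1.38.

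*Stat3* was also 1.82-fold higher in *RBS* lesions than in Shh-MBs (log2 difference 0.87, SE 0.158, limma, adjusted *p* = 0.00161). That difference was 0.02 with median centring (adjusted *p* = 0.906) and 0.34 with quantile normalization (adjusted *p* = 0.0532). Between Shh-MBs and control eyes, neighbours in the order of levels, the log2 difference was 0.42 (95% interval -0.02 to 0.87, limma, adjusted *p* = 0.116). It passed with median centring, at 1.09 (adjusted *p* = 0.000902), and with quantile normalization and scaling to the total without the 3 highest genes, at 0.74 each. Whether *Stat3* passed the test between Shh-MBs and either eye group therefore depended on the scaling, while its direction did not.

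The summed signals of neuronal, glial, immune and surface epithelium markers were, like *Stat3* and *Jak2*, higher in every *RBS* lesion than in any control eye. Of the 9 surface epithelium markers, whose sums are given above, 5 were higher and 0 lower in *RBS* lesions than control eyes. The 8 neuron markers measured of 14 summed to 966 to 1070 in control eyes, 2890 to 3820 in the *RBS* lesions and 1130 to 1610 in Shh-MBs, and 7 of 8 were higher in *RBS* lesions than control eyes. The 2 glial markers measured of 11, *Sox9* and *Fgfr3*, summed to 519 to 740, 1120 to 1700 and 454 to 634, and both were higher in *RBS* lesions than control eyes, *Sox9* not with quantile normalization. The 8 myeloid and immune markers measured of 15 summed to 114 to 161, 205 to 268 and 138 to 250, with 2 of 8 higher in *RBS* lesions than control eyes, *Csf1r* and, except with quantile normalization, *Cd14*, beside 33.0% of all genes, and *Il2rb* at the lowest value in all *RBS* lesions and Shh-MBs. Their part in the levels of *Stat3* and *Jak2* was not tested. Of 12 retina and lens markers only *Fgf15* and *Ccnd1* were measured, which summed to 12100 to 16200 in control eyes and 1480 to 2380 in *RBS* lesions. No defining marker of retina or lens was among the genes analysed here, so the labelled eye tissue could not be checked further.

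**Figure D2:**
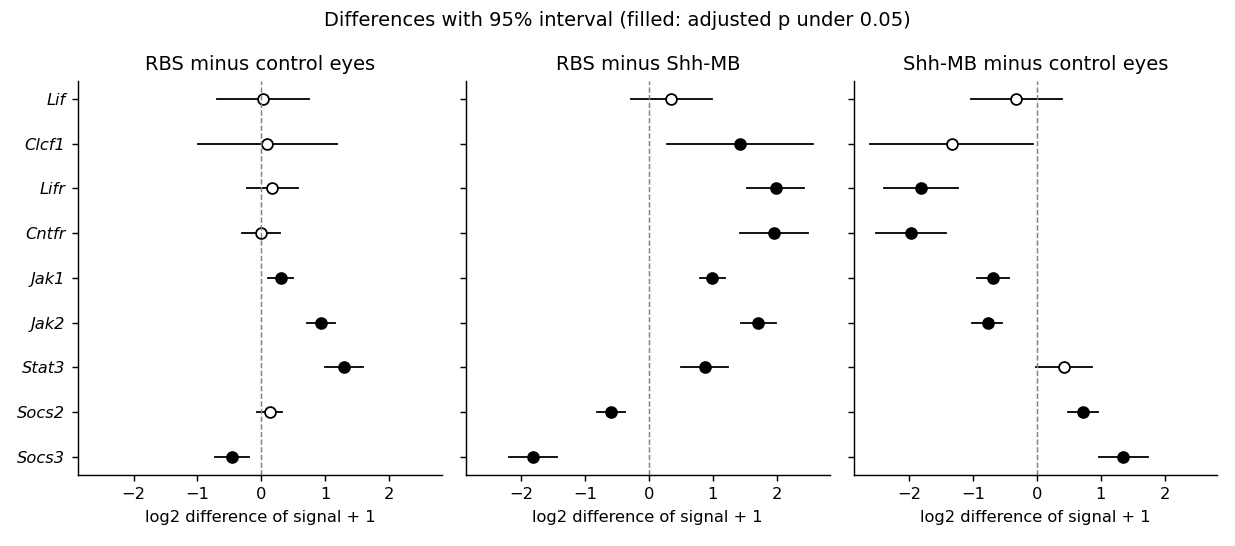
Log2 difference of signal + 1 with its 95% interval for each of the 9 genes in the 3 comparisons, with filled points for an adjusted *p* under 0.05 (limma, over all 770 genes). *Jak2* and *Stat3* lie to the right and *Socs3* to the left of 0 in *RBS* lesions against either group, whereas *Lifr* and *Cntfr* lie near 0 against control eyes and near 2 against Shh-MBs.

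The SOCS proteins are inhibitors that cytokine receptors switch on and that limit their own signal. *Socs3*, a target of STAT3 and the main inhibitor of gp130 receptors, went the other way from *Stat3* in *RBS* lesions. Its signal was 34.6, 28.7, 34.3 and 29.2 in the control eyes, 21.8, 24.4, 18.9, 26.6 and 22.4 in the *RBS* lesions and 86.5, 98.0 and 65.9 in the Shh-MBs. The groups did not overlap, with means of 31.7 ± 3.15 (SD, *n* = 4), 22.8 ± 2.88 (*n* = 5) and 83.5 ± 16.2 (*n* = 3). These are low values, which in the *RBS* lesions rest on an estimated 13.3 to 30.1 counts above background. *Socs3* was 1.38-fold lower in *RBS* lesions than control eyes (log2 difference -0.46, SE 0.116, limma, adjusted *p* = 0.00889), with an exact permutation *p* of 0.0159. The call was lost with limma's trend and robust settings (adjusted *p* = 0.0687). Against Shh-MBs *Socs3* was lower in *RBS* lesions, with a log2 difference of -1.82 (SE 0.161) (limma, adjusted *p* = 3.59e-05), and it was 2.56-fold higher in Shh-MBs than in control eyes (limma, adjusted *p* = 0.000611).

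*Socs2*, best known for limiting growth hormone signaling, overlapped between the eye groups and was higher in Shh-MBs. Its signal was 348, 315, 302 and 350 in the control eyes, 324, 362, 370, 359 and 376 in the *RBS* lesions and 546, 562 and 519 in the Shh-MBs. The eye groups overlapped, and their log2 difference was 0.13 (95% interval -0.07 to 0.32, limma, adjusted *p* = 0.264). *Socs2* was 1.51-fold lower in *RBS* lesions than in Shh-MBs (limma, adjusted *p* = 0.000663) and 1.65-fold higher in Shh-MBs than in control eyes (limma, adjusted *p* = 0.00121). The means were 329 ± 24 (SD, *n* = 4) in control eyes, 358 ± 20.4 (*n* = 5) in *RBS* lesions and 542 ± 21.6 (*n* = 3) in Shh-MBs.

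Within samples, the log2 ratio of *Socs3* to *Stat3* set the 3 groups apart. It was -2.99, -2.95, -2.99 and -3.49 in the control eyes, -4.97, -4.71, -4.94, -4.9 and -4.76 in the *RBS* lesions and -2.42, -1.84 and -2.26 in the Shh-MBs. The ratio was thus 3.37-fold lower in *RBS* lesions than control eyes and 6.42-fold lower than in Shh-MBs, with no overlap. The ratio of *Socs3* to *Socs2* was 1.5-fold lower in *RBS* lesions than control eyes and 2.33-fold lower than in Shh-MBs, again without overlap. The ratios of *Cntfr* to *Lifr* and of *Clcf1* to *Lif* overlapped between all groups.

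**Figure D3:**
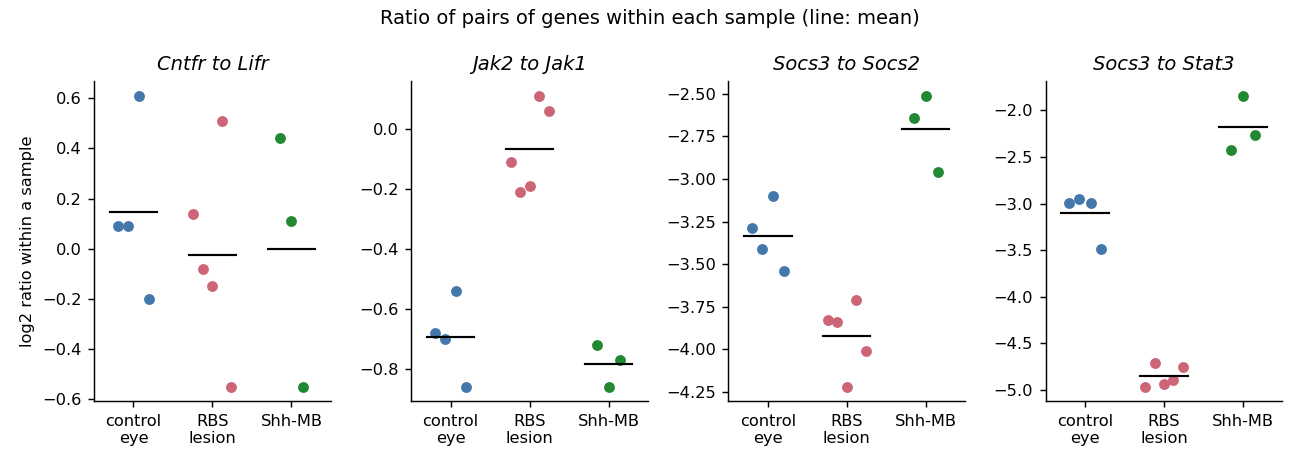
Log2 ratio of 2 genes within each sample for 4 pairs, 1 point per sample with the group mean as a line, for control eyes (n = 4), *RBS* lesions (n = 5) and Shh-MBs (n = 3). The ratio of *Jak2* to *Jak1* is raised in *RBS* lesions alone, that of *Socs3* to *Stat3* is lowest in *RBS* lesions and highest in Shh-MBs, and that of *Cntfr* to *Lifr* overlaps in all groups.

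The summed signal of the markers listed for cerebellar granule cells and Shh-MB was, like *Socs2* and *Socs3*, highest in Shh-MBs. Those measured were *Gli1*, *Mycn*, *Ccnd2*, *Hhip* and *Sfrp1*. The granule cell genes of the list, *Atoh1*, *Zic1*, *Barhl1* and *Neurod1*, were not among the genes analysed here. The 5 measured of 10 summed to 3130 to 4080 in control eyes, 2570 to 3210 in the *RBS* lesions and 10300 to 12900 in Shh-MBs. Of these, 4 of 5 were higher in Shh-MBs than in control eyes, beside 9.61% of all genes. In *RBS* lesions against control eyes 3 of 5 were lower, *Gli1*, *Mycn* and *Sfrp1*, beside 18.2% of all genes. Their part in the levels of *Socs2* and *Socs3* was not tested.

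Since *Socs3* is a target of STAT3, the windows around the gene starts were searched for the STAT motif. RefSeq windows of GRCm38.p6, 250 bases before to 50 after a start, were found for 7 of 9 members, 13 windows in all, with none for *Clcf1* and *Socs2*. The motifs searched on both strands were TTCNNNGAA and TTCNNNNGAA for STAT factors, TGGGTGGTC for GLI factors of the Shh pathway and CTTTGAT for TCF and LEF factors of the Wnt pathway. Of all 32851 windows, 8.3%, 6.95%, 0.253% and 3.73% hold them in this order. The only match was 1 TTCNNNGAA in *Socs3*, at positions -154 to -146 from the start, shown in capitals. This was 1 match in 13 windows, beside 8.3% of all windows, and was not tested against that share. The windows of *Jak2* and *Stat3*, the members that rose most in *RBS* lesions over control eyes, are shown beside it and hold no match. The windows lie at chr11:117969317-117969616 (minus strand, *Socs3*), chr11:100939491-100939790 (minus strand, *Stat3*) and chr19:29251553-29251852 (plus strand, *Jak2*), with 73.3%, 60.7% and 81.0% G and C, and are written 5′ to 3′ on the strand of the gene.
Socs3: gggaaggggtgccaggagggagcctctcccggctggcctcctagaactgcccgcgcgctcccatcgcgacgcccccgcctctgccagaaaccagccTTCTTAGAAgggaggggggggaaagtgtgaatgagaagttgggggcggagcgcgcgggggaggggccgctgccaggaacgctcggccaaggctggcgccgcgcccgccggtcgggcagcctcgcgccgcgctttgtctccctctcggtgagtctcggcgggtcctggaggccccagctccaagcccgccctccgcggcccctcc
Stat3: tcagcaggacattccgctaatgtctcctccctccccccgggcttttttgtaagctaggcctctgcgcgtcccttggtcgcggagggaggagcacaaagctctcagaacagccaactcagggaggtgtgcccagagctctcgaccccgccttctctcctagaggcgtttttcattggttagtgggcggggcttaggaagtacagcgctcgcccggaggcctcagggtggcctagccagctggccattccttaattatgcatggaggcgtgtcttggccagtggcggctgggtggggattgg
Jak2: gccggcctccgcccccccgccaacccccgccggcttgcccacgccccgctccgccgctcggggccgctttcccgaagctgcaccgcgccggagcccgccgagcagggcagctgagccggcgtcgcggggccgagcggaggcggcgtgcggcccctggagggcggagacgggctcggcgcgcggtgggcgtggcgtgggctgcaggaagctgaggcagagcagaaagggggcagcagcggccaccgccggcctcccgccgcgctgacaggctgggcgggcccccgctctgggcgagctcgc

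The other JAK-STAT genes of the panel were mostly low. Apart from the members, 56 genes of 7 lists of ligands, receptors, kinases, STAT factors and regulators were measured, and 44 of 56 had a mean signal under 20 over the 12 samples, against 183 of 770 genes overall. In *RBS* lesions, 10 of 56 were higher and 2 lower than in control eyes, with a median log2 difference of 0.06, beside 33.0% higher, 18.2% lower and a median of 0.17 over all genes. Against Shh-MBs 12 were higher and 2 lower, with a median of 0.08, beside 48.1%, 12.7% and 0.53 over all genes. In Shh-MBs, 1 was higher and 8 were lower than in control eyes, with a median of -0.05, beside 9.61%, 31.4% and -0.22 over all genes.

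Among the ligands of the gp130 family 5 of 10 were measured. In *RBS* lesions against control eyes 0 of 5 passed the test with limma, and 0 at an unadjusted *p* under 0.05. With the methods' test, run without its permutations and with Benjamini-Hochberg in place of Bonferroni adjustment, 0 of 5 passed. *Il6*, *Il11* and *Osm* had means of 1.81, 1.66 and 6.95 in *RBS* lesions and 1.07, 1.42 and 6.11 in control eyes. *Il6ra*, the interleukin-6 receptor, was 1.83-fold higher in *RBS* lesions than control eyes (means 21.4 and 11.7, limma, adjusted *p* = 0.00665) and 2.65-fold higher than in Shh-MBs (mean 7.51, limma, adjusted *p* = 4.3e-05). Against control eyes it was the 1 receptor of 4 that passed. With the methods' test without its permutations, under Benjamini-Hochberg adjustment, 0 of 4 passed. *Il11ra1*, the interleukin-11 receptor, had means of 49.7 ± 28.3 in *RBS* lesions and 35.9 ± 19.2 in control eyes and sat at the sample's lowest value in each of 3 Shh-MBs (limma, adjusted *p* = 8.82e-05 and 0.000132). With *Lifr* and *Cntfr*, 4 of 4 measured receptors of the family were higher in *RBS* lesions than in Shh-MBs, beside 48.1% of all genes, although *Il6ra* did not pass with quantile normalization. The log2 difference of *Il6ra* from Shh-MBs was 1.4 under the deposited scaling and 0.01 to 1.16 under the 4 others.

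Of 3 measured kinases, *Jak3* joined *Jak1* and *Jak2* in being higher in *RBS* lesions than in Shh-MBs (means 26.3 and 12.1, limma, adjusted *p* = 0.0171), but it passed under none of the 4 other scalings, where its log2 difference ran from -0.34 to 0.9. Of 3 measured STAT factors, *Stat3* alone passed in any comparison.

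Of 7 measured regulators, *Socs1*, *Ptpn11* and *Cbl* rose and *Socs3* fell in *RBS* lesions against control eyes, beside 33.0% and 18.2% of all genes. With the methods' test without its permutations, under Benjamini-Hochberg adjustment, 2 of 7 rose. *Socs1*, an inhibitor of the kinases, had means of 63.7 ± 6.59 in *RBS* lesions, 43.0 ± 14.1 in control eyes and 16.0 ± 1.51 in Shh-MBs. It overlapped between both eye groups (limma, adjusted *p* = 0.0246) and was 3.79-fold higher in *RBS* lesions than in Shh-MBs (limma, adjusted *p* = 5.87e-06), a log2 difference of 1.92 that was between 0.5 and 1.68 under the 4 other scalings. *Socs1* was thus lower in Shh-MBs than in either eye group, where *Socs2* and *Socs3* were higher. These directions held under all 4 other scalings, although *Socs1* did not pass between Shh-MBs and control eyes with quantile normalization. *Cbl*, a ubiquitin ligase for activated receptors, had means of 615 ± 52.4 in *RBS* lesions, 385 ± 44.6 in control eyes and 204 ± 26.4 in Shh-MBs, without overlap (limma, adjusted *p* = 0.000738 against control eyes). *Ptpn11*, the phosphatase SHP2 that binds gp130, was 1.36-fold higher in *RBS* lesions than control eyes (means 614 and 451, limma, adjusted *p* = 0.00178), a call that was lost with median centring and quantile normalization.

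The 21 other cytokines measured all had a mean under 20. In *RBS* lesions *Il12a* and *Epo* were lower than in control eyes, and *Il12a* and *Il3* lower than in Shh-MBs. *Il12a*, a subunit of interleukin-12, had means of 8.63 ± 1.99 in control eyes and 8.14 ± 2.55 in Shh-MBs and sat at the lowest value of the sample in 4 of 5 *RBS* lesions (limma, adjusted *p* = 0.000462 and 0.00158). In Shh-MBs against control eyes *Il3* was higher (means 6.39 and 1.64, limma, adjusted *p* = 0.0022) and *Ifna1* lower (means 8.29 and 17.1, limma, adjusted *p* = 0.00297), although *Ifna1* turned to 0.23 under another scaling. Among the 22 other receptors, 6 rose in *RBS* lesions against control eyes with limma, beside 33.0% of all genes, and 0 fell. At an unadjusted *p* under 0.05, 0 fell as well. With the methods' test without its permutations, under Benjamini-Hochberg adjustment, 3 rose and 0 fell. *Il7r*, the interleukin-7 receptor, was higher in *RBS* lesions than control eyes at means of 4.53 and 1.09, where 3 of 4 control eyes and 1 of 5 *RBS* lesions were at the lowest value of their sample (limma, adjusted *p* = 0.00606). *Lepr*, the leptin receptor, which also signals through JAK2 and STAT3, had means of 118 ± 12 in *RBS* lesions, 42.1 ± 18.6 in control eyes and 11.7 ± 7.51 in Shh-MBs. It was 2.93-fold higher in *RBS* lesions than control eyes (limma, adjusted *p* = 0.00063) and 10.8-fold higher than in Shh-MBs (limma, adjusted *p* = 0.000106). *Ghr*, the growth hormone receptor whose signal SOCS2 limits, was 2.84-fold higher in *RBS* lesions than in Shh-MBs (means 198 and 69.2, limma, adjusted *p* = 0.000101). *Il3ra*, the interleukin-3 receptor, was lower in Shh-MBs than in control eyes (means 7.67 and 19.5, limma, adjusted *p* = 0.00581), a call lost with median centring and quantile normalization. Under the 4 other scalings the log2 difference of *RBS* lesions from Shh-MBs was 2.18 to 3.19 for *Lepr* and 0.66 to 1.26 for *Ghr*, below the 3.43 and 1.51 of the deposited scaling.

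A list of 13 measured STAT3 target genes of 20, written from general knowledge and including *Stat3* and *Socs3* themselves, did not move one way. In *RBS* lesions against control eyes 5 of 13 rose, 2 fell and 6 did not pass, beside 33.0% higher and 18.2% lower of all genes, with a median log2 difference of 0.19 against 0.17 for all genes. Those that rose were *Stat3*, *Il6ra*, the immediate early gene *Fos* (means 85.7 and 36.5, limma, adjusted *p* = 0.00559) and the survival genes *Bcl2l1* (means 623 and 401, limma, adjusted *p* = 0.000308) and *Bcl2* (means 74.1 and 45.8, limma, adjusted *p* = 0.00209). Those that fell were *Socs3* and the cell cycle gene *Ccnd1*, which was 7.54-fold lower (limma, adjusted *p* = 3.48e-06). Against Shh-MBs, where 48.1% of all genes were higher and 12.7% lower, 7 of 13 were higher in *RBS* lesions and 3 lower, namely *Socs3*, *Myc* and *Pim1*. Against control eyes, where 9.61% of all genes were higher and 31.4% lower, 3 of 13 were higher in Shh-MBs, *Socs3*, *Myc* and *Pim1*, and 2 were lower, *Ccnd1* and *Vegfa*, in a comparison that shares its Shh-MBs with the one before. *Pim1*, a survival kinase, had means of 28.5 ± 10.9 in *RBS* lesions, 36.9 ± 3.16 in control eyes and 70.7 ± 14.7 in Shh-MBs. *Vegfa*, the vascular growth factor, had means of 617 ± 258, 727 ± 130 and 70.3 ± 13.7 in the same order, and it was 8.31-fold higher in *RBS* lesions than in Shh-MBs (limma, adjusted *p* = 5.05e-05). *Hgf*, the hepatocyte growth factor, was also higher there (means 27.6 and 4.6, limma, adjusted *p* = 6.24e-05). Under the 4 other scalings these log2 differences, 3.06 and 2.35, were 2.21 to 2.81 for *Vegfa* and 1.03 to 2.1 for *Hgf*.

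**Figure D4:**
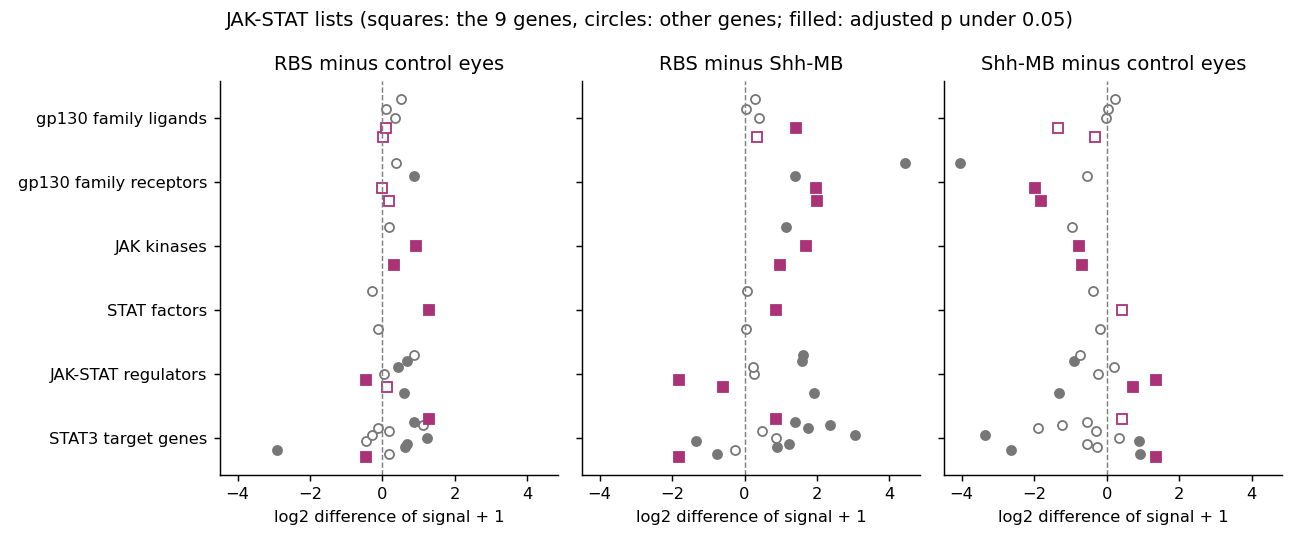
Log2 difference of signal + 1 of each measured gene of 6 JAK-STAT lists in the 3 comparisons, with squares for the 9 genes, circles for other genes and filled symbols for an adjusted *p* under 0.05 (limma). In *RBS* lesions against control eyes no ligand has a filled symbol, all 4 receptors of *RBS* lesions lie above 0 against Shh-MBs, and the STAT3 target genes spread to both sides in each comparison.

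For the 7 members with a mean signal of at least 20, the genes with the most similar profile over the 12 samples were found by the root mean square difference of centred log2 values. This is a description with no test, and the samples share their groups. *Jak1* was closest to *Gnas*, a G protein subunit, at 0.0811 with an SD of 0.401 for *Jak1* itself, and to *Sos2* at 0.0938. *Jak2* was close to *Cbl*, at 0.171 with an SD of 0.697 for *Jak2* itself. *Stat3* was closest to *Sos1*, an activator of RAS, at 0.209 with an SD of 0.6, and to *Axin2*, a feedback gene of Wnt signaling, at 0.24. *Axin2* had means of 96.8 ± 7.99 in control eyes, 186 ± 28.1 in *RBS* lesions and 120 ± 9.44 in Shh-MBs.

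*Lifr* was nearest to *Runx1* at 0.263 and *Flnc* at 0.286, with an SD of 0.869, and *Cntfr* to *Rasgrp2* at 0.259 and *Pik3r1* at 0.273, with an SD of 0.885. All 4 were lowest in Shh-MBs. *Socs2* was nearest to *Smad3* at 0.157 and *Fancc* at 0.179, with an SD of 0.298. *Socs3* was nearest to *Zic2* and *Mycn*, both at 0.307 with an SD of 0.745, and the latter had means of 1280 ± 155 in control eyes, 701 ± 66.4 in *RBS* lesions and 3620 ± 459 in Shh-MBs.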

How the data were processed

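RNA of each sample was counted with the mouse version of the nCounter PanCancer panel. The authors ran the counts through nSolver and its Advanced Analysis module and deposited a normalized signal, which is not on a log scale. Judged from its low values, a background had been taken off and each sample multiplied by 1 factor, and the background setting and reference genes are not given in the sources used here. Whole counts could not be recovered, so no count test was run. Columns were assigned by sample title.

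From the deposited signal, log2(signal + 1) was computed without a filter. Pairs of groups were compared with limma 3.58.1 in R 4.3.3 (eBayes, two-sided, Benjamini-Hochberg adjustment over 770 genes, threshold 0.05), and single members with an exact two-sided permutation test over all 126, 56 or 35 splits, which allow no *p* below 0.00794, 0.0179 and 0.0286. Of the 770 symbols 760 matched the RefSeq table and 10 an older name in it, and all 9 members matched. The plots were made in Python 3.11.15 (matplotlib 3.10.9).

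Named genes were all members, up to 2 highest and 2 lowest per pathway or target list and comparison among genes that passed without overlap, and the 2 genes closest in profile to each member, of which 1 is not reported here. Marker lists are given by sums and counts, and other list genes, markers included, were named after their values were seen. The members, lists and rules were chosen with earlier results of these data known. Alternatives were a pseudocount of 5, leaving out or raising values under 20, 4 other scalings and limma's trend and robust settings. Further ones were all groups in 1 fit, a replicate block, a Welch test with 2 adjustments and leaving out each sample. The Welch *p* came from the t distribution, without the permutations that the authors' methods name. The steps were tested on simulated data.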

Additional observations from a re-analysis of the deposited data

Results flagged for a closer look

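In 28 sets of 4 or 5 values, those of the 9 genes and 5 ratios in control eyes and *RBS* lesions, 3 held a sample far from the others by Dixon's criterion, which chance meets in about 1 of 20 groups. The 3 Shh-MBs were too few for it. For *Lif*, control eye 3 lay apart with a gap of 0.906 of the range, at a signal of 3.53 near the limit of detection. For *Jak2*, control eye 1 lay apart with 0.857 of the range, at 355 against 322 to 326. For the log2 ratio of *Socs3* to *Stat3*, control eye 4 lay apart with 0.926 of the range, at -3.49, which is nearer to the *RBS* lesions but above all of them.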

How the results depend on the processing

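No member that passed the test changed direction under any alternative run. The reversals were differences that did not pass. For *RBS* lesions against control eyes, *Lif* turned to -0.15 with median centring, -0.08 with reference gene centring, -0.02 with scaling to the total without the 3 highest genes and -0.06 with quantile normalization, and ranged from -0.18 to 0.3 with single samples left out. *Lifr* turned to -0.01 and *Socs2* to -0.05 with median centring, and to -0.02 and -0.07 with quantile normalization. *Clcf1* turned to -0.09, -0.01 and -0.11 with median, reference gene and quantile scaling and ranged from -0.19 to 0.45 with single samples left out, and *Cntfr* ranged from -0.08 to 0.09. With median centring *Lif* turned to -0.5 for *RBS* lesions against Shh-MBs and to 0.34 for Shh-MBs against control eyes. Genes past the Welch test with Bonferroni adjustment were 69, 74 and 35 in the 3 comparisons, against 394, 468 and 316 with limma. Members past it were 1, 3 and 0, against 4, 7 and 6 at an unadjusted *p* under 0.05, 4, 7 and 5 with Benjamini-Hochberg adjustment and 4, 8 and 6 with limma. Median centring left 5 members for *RBS* lesions against Shh-MBs. *Clcf1* passed for Shh-MBs against control eyes without Shh-MB 3, at -1.76 (adjusted *p* = 0.0486), and *Cntfr* did not pass there with the Welch test (Benjamini-Hochberg, adjusted *p* = 0.0514). With values under 20 left out or set to 20, *Lif* and *Clcf1* gave no value.

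Same-numbered samples did not deviate together (correlations of -0.148 to 0.188), so the numbers gave no sign of pairing. With so few samples this check cannot exclude a shared litter or run. With the number as a replicate block, 2 members passed for *RBS* lesions against control eyes in place of 4, without *Jak1* (adjusted *p* = 0.0998) and *Socs3* (adjusted *p* = 0.0794), and the block gave 301, 407 and 230 genes. Under the block *Clcf1* was -0.12 and *Cntfr* 0.09 for *RBS* lesions against control eyes, and *Clcf1* passed for Shh-MBs against control eyes at -0.98 (adjusted *p* = 0.0484). With the depth given above, the signals of *Lif* and *Clcf1* cannot show changes of the size measured for *Jak1*.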
